A study of Mus musculus with 8 samples.

Results

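Transcripts of 10 tubulin genes were followed on polysomes of the mouse main olfactory epithelium, the lining of the nose that holds olfactory sensory neurons, supporting (sustentacular) cells and basal stem cells. The 10 were chosen by symbol, with earlier results of these data known. They were the alpha tubulins Tuba1a, Tuba1b, Tuba1c and Tuba4a, and the beta tubulins Tubb2a, Tubb2b, Tubb3, Tubb4a, Tubb4b and Tubb5. All 10 were listed in a table of 21765 genes, and all 10 were among the 16097 genes tested, those with a mean of at least 1 TPM (transcripts per 1000000, a gene's share of a library after correction for transcript length). All 10 were higher in late, heavier polysomes than in early, lighter ones, by 0.87 to 1.43 on the log2 scale, and none passed the test between genotypes.

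Alpha and beta tubulin pair into the dimer from which microtubules are assembled, the polymers that fill axons and dendrites and form the core of cilia. Newly made chains are handed by prefoldin to the chaperonin CCT and are joined into dimers by tubulin cofactors. Free dimer feeds back on its own messages: TTC5 recognises the first residues of the emerging chain at the ribosome and, with SCAPER and the CCR4-NOT deadenylase, brings about decay of the tubulin mRNA being translated. This decay acts on tubulin messages while they are being translated on polysomes. Isotypes differ mostly in the acidic tail at the end of the chain, where many modifying enzymes act.

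In a polysome gradient, transcripts that carry more ribosomes travel further. Lysates of tissue treated with cycloheximide (100 µg/mL), which holds ribosomes on mRNA, were spun through sucrose, and fractions 27 to 34 were pooled as early and fractions 35 to 42 as late polysomes. Wild-type (WT) mice were Mex3a flox/flox or Mex3a flox/+ without Cre, and conditional knockout (cKO) mice were Mex3a flox/flox with Cre; Mex3a encodes an RNA-binding protein. Every mouse thus carried a floxed Mex3a allele, and only cKO mice carried Cre, so loss of Mex3a and presence of Cre cannot be told apart. The labels give neither ages nor the number of mice behind a lysate. The design text of the series names tetO-HyperTRIBE-mCherry and tetO-Mex3a-HyperTRIBE-mcherry transgenes for sorted cells, which the labels of the polysome samples do not list. Each genotype gave 2 lysates, and each lysate gave 1 early and 1 late library, giving 2 libraries for every combination of genotype and fraction.

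Reads inferred from the steps of the TPM values came to between 7776792 (cKO late replicate 2) and 12771079 (WT late replicate 2) per library. Mex3a was at 93.2 to 115.6 TPM in the 4 WT libraries and at 11.1 to 19.8 TPM in the 4 cKO libraries. The genotype tag of WT early replicate 2 is that of cKO, against its title; its Mex3a level was 115.6 TPM, and it was kept as WT. Marker genes of the tissue were found in every library. The 10 markers of mature olfactory neurons summed to between 7563 and 12660 TPM, and the 8 of sustentacular cells to between 6895 and 14840 TPM. No listed marker in the table was at 0 in all 8 libraries, and single libraries were not checked for this. Nothing in the labels says that lysates of a genotype came from separate animals, so p-values measure only the spread between these libraries.

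The first coding bases are shown because they encode the residues read in tubulin autoregulation. Each line gives the first 30 coding bases, 5′ to 3′ on the coding strand, from GENCODE transcripts on GRCm38, with the start codon and the next 3 codons in capitals.
Tuba1a: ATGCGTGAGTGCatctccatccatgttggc
Tuba1b: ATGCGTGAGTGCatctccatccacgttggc
Tuba1c: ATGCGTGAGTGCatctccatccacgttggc
Tuba4a: ATGCGCGAGTGCatttcagtccatgtgggg
Tubb2a: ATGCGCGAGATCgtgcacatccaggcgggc
Tubb2b: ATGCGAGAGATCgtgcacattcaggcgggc
Tubb3: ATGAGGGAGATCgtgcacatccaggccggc
Tubb4a: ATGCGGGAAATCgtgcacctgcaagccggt
Tubb4b: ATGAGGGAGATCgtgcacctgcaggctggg
Tubb5: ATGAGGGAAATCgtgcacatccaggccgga
The fourth codon was TGC (cysteine) in the 4 alpha genes and ATC (isoleucine) in the 6 beta genes. Tuba1a, Tuba1b and Tuba1c shared all 12 capital bases, as did Tubb3 and Tubb4b, and the 10 genes held 7 different forms of these 12 bases.

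The ends of the coding sequences, which encode the acidic tail, are shown for some of the genes. Each line gives the last 45 coding bases, with the stop codon in capitals.
Tuba1c: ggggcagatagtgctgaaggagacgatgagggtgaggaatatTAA
Tuba4a: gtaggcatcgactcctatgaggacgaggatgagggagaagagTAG
Tubb3: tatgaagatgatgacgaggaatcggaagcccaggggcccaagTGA
Tubb4a: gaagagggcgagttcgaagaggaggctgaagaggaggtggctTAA
Tubb4b: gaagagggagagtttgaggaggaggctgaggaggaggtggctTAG
The last codon before the stop encodes tyrosine in Tuba1c (tat) and glutamate in Tuba4a (gag). Tubb4a and Tubb4b differed at 5 of these 45 bases, and Tubb3 and Tubb4b at 26. Over the whole coding sequence, identity was 98.3% between Tuba1a and Tuba1b and 96.5% between Tubb2a and Tubb2b. It was 83.2% between Tubb4a and Tubb4b and 82.3% between Tubb3 and Tubb4b. Across all pairs it ran from 84.7% to 98.3% among the alpha genes, from 81.4% to 96.5% among the beta genes, and from 57.4% to 59.4% between the families. Each gene has 4 exons in its longest coding transcript and encodes between 444 and 451 codons.

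On GRCm38, 3 alpha genes lie close together on chromosome 15: Tuba1b at chr15:98931425-98934565 and Tuba1a at chr15:98949837-98953703, both on the minus strand, and Tuba1c at chr15:99029891-99038110 on the plus strand. Tuba4a is at chr1:75214228-75219865 (minus). Tubb2a (chr13:34074274-34078007) and Tubb2b (chr13:34126748-34130466), both minus, neighbour each other. Tubb3 is at chr8:123411424-123422015 (plus), Tubb4b at chr2:25222160-25224702 (minus), Tubb4a at chr17:57080066-57087782 (minus) and Tubb5 at chr17:35833921-35838306 (minus).

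Reads from near-identical copies may have been split or dropped, since how reads with several matches were counted is not given in the sources used here. Of the 50-base windows of each transcript, 73.8% were also found in transcripts of other genes for Tuba1b, 72.9% for Tuba1a, 61.0% for Tuba1c, 50.9% for Tubb4b, 49.6% for Tubb2a and 39.3% for Tubb2b. The levels of these 6 genes are uncertain for that reason, by an amount that was not measured. For Tuba4a, Tubb4a, Tubb5 and Tubb3 the share was 1.11%, 0.184%, 0.115% and 0.0%. Other genes of the annotation also overlap Tuba1a and Tuba1b (Gm49450), Tuba1b (the antisense Gm41396), Tuba4a (Stk16), Tubb3 (Gm20388) and Tubb4b (Fam166a).

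Tuba1a, the main alpha tubulin of developing neurons, was the most abundant alpha transcript in every library. In early polysomes it stood at 993 and 948 TPM (WT) and at 1085 and 984 TPM (cKO). In late polysomes it stood at 2029 and 2226 TPM (WT) and at 2101 and 2583 TPM (cKO). The lowest late library was above the highest early library, and Tuba1a made up between 90.7% and 92.4% of the summed TPM of the 4 alpha genes in all 8 libraries. Tuba1a rose by 1.03 log2 from early to late polysomes (SE 0.10, limma adjusted p = 5.252e-05).

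The other alpha genes were each far below Tuba1a. Tuba1b, a widely expressed alpha tubulin, was at 38.0 and 23.2 TPM in the WT early, 35.7 and 23.2 in the cKO early, 64.2 and 67.3 in the WT late, and 66.4 and 95.4 in the cKO late libraries. Its early values differed between replicates more than those of Tuba1a did, and the late libraries lay above all early ones. Tuba1c, a close copy of Tuba1b, was at 21.1 and 18.2 TPM in early WT, 20.7 and 24.3 in early cKO, 41.7 and 45.4 in late WT, and 44.8 and 73.2 in late cKO libraries. The highest Tuba1b and Tuba1c values were both in cKO late replicate 2, the shallowest library. Tuba4a, the alpha tubulin without an encoded terminal tyrosine, was at 36.8 and 36.6 TPM in early WT, 53.6 and 44.6 in early cKO, 85.1 and 91.7 in late WT, and 83.0 and 96.6 in late cKO libraries. All 3 genes rose: Tuba1b by 1.16 log2 (SE 0.18), Tuba1c by 1.10 (SE 0.14) and Tuba4a by 0.94 (SE 0.08), with limma adjusted p of 0.000555, 0.00018 and 2.799e-05.

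Tubb4b, a beta tubulin found in many tissues and a major one of motile cilia, was the most abundant beta transcript. Early libraries held 794 and 723 TPM (WT) and 801 and 605 TPM (cKO), and late libraries 1983 and 2279 TPM (WT) and 2026 and 2200.1 TPM (cKO). Every late value was above every early value by a wide margin. Tubb4b rose by 1.43 log2 (SE 0.11, limma adjusted p = 2.489e-05), a 2.69-fold change.

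Tubb5, the beta tubulin of dividing and many other cells, was the next in level, at 601 and 597 TPM in early WT, 599.5 and 563 in early cKO, 1204 and 1359 in late WT, and 1229 and 1444 in late cKO libraries. Tubb3, the neuronal beta tubulin known as a marker of neurons, was at 453 and 481 TPM in early WT, 445 and 410.1 in early cKO, 989 and 1008 in late WT, and 907 and 953 in late cKO libraries. Neither gene had an early library that reached a late one. Tubb5 rose by 1.03 log2 (SE 0.09) and Tubb3 by 0.99 (SE 0.08), with limma adjusted p of 3.054e-05 and 2.284e-05.

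Tubb2b, a beta tubulin of developing neurons, was at 335 and 310.0 TPM in early WT, 304 and 295 in early cKO, 628 and 615 in late WT, and 599 and 618 in late cKO libraries. Its close copy Tubb2a was at 52.0 and 40.1 TPM in early WT, 48.6 and 40.6 in early cKO, 115.2 and 113.2 in late WT, and 112.5 and 108.4 in late cKO libraries. Late libraries were above early ones for both. Tubb2b rose by 0.87 log2 (SE 0.07, limma adjusted p = 2.47e-05), the smallest change of the 10 genes, and Tubb2a by 1.18 (SE 0.09, limma adjusted p = 2.522e-05).

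Tubb4a, the beta tubulin of oligodendrocytes and some neurons, was the rarest of the 10. It was at 7.50 and 4.20 TPM in early WT, 2.08 and 1.74 in early cKO, 19.0 and 10.4 in late WT, and 5.39 and 7.66 in late cKO libraries. Between 17 and 179 inferred reads lay behind each of these values, against 159 to 15916 for the other 9 genes. The late library was higher than the early one in each lysate, but cKO late replicate 1 (5.39 TPM) lay below WT early replicate 1 (7.50 TPM). Tubb4a rose by 1.17 log2 (SE 0.23, limma adjusted p = 0.00172).

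**Figure D1:**
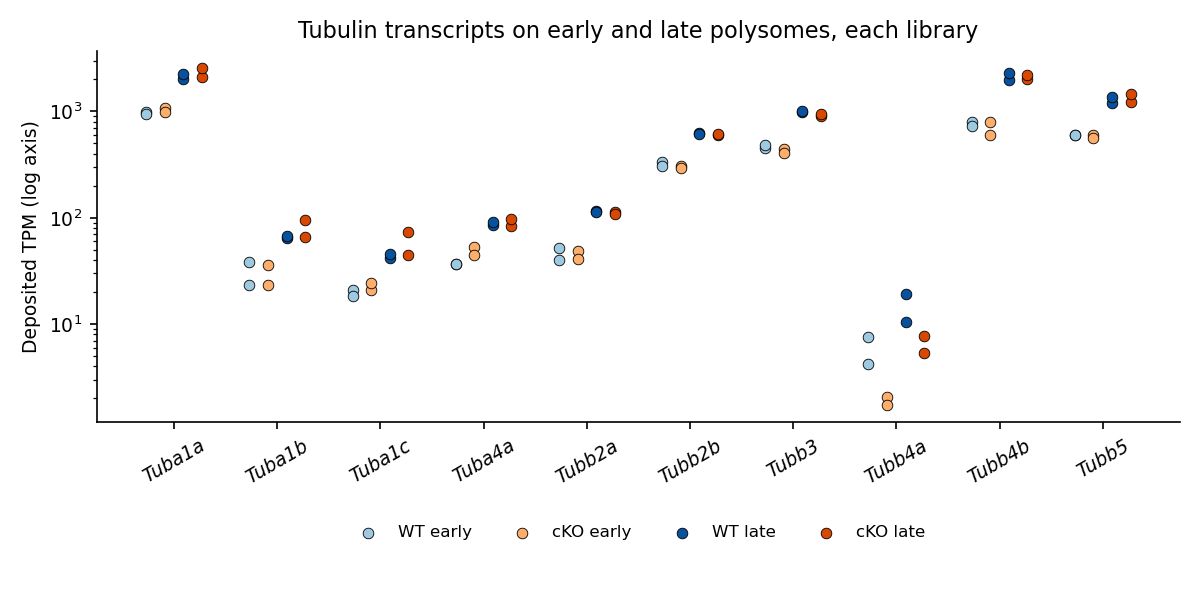
Deposited TPM (log axis) of the 10 tubulin genes in each of the 8 libraries, 1 point per library, with fraction and genotype by colour. Late libraries lie above early ones for every gene but Tubb4a, where cKO late replicate 1 (5.39 TPM) is below WT early replicate 1 (7.50 TPM).

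Fitted over all 16097 genes, 10 of 10 tubulin genes were called higher in late polysomes by limma (adjusted p under 0.05), where 34.3% of all genes did so. Within WT alone 10 of 10 passed (27.1% of all genes), and within cKO alone 10 of 10 (28.9%). The median change of the 10 was 1.07 log2, beside -0.01 over all genes tested. In 9 of the 10, all but Tubb4a, every late library was above every early library, which held for 31.5% of all genes. These are changes in a gene's share of a library's RNA: the amount of RNA in each pool is not part of TPM. Without WT early replicate 2, the WT change was smaller for Tuba1b (0.67 log2, against 1.01 with all libraries) and Tubb4a (0.73, against 1.08). Their WT calls were lost in that fit, where fewer of all genes were called as well.

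Taken by lysate, the change was above 0.5 log2 for each gene in each lysate. The median of the 10 genes was 0.99 in the first and 1.13 in the other WT lysate (WT1, WT2), and 0.95 in the first and 1.23 in the other cKO lysate (KO1, KO2). Tubb2b varied least between lysates, from 0.82 to 0.90, and Tubb3 ranged from 0.94 to 1.05. Tuba1b varied most, at 0.65 in WT1, 0.80 in KO1, 1.37 in WT2 and 1.83 in KO2. On this scale, with its pseudocount of 1, Tubb4b had the largest change in WT1 (1.23), KO1 (1.25) and WT2 (1.53). In KO2 (1.69) it was second, after Tuba1b. Tubb4b exceeded the median of the other 9 genes by 0.29 in WT1, 0.31 in KO1, 0.42 in WT2 and 0.47 in KO2. The pseudocount lowers the change of Tubb4a, the rarest of the 10, so its place in this ranking is uncertain. On the mean of both genotypes, voom on inferred reads gave 1.40 for Tubb4a and 1.44 for Tubb4b.

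**Figure D2:**
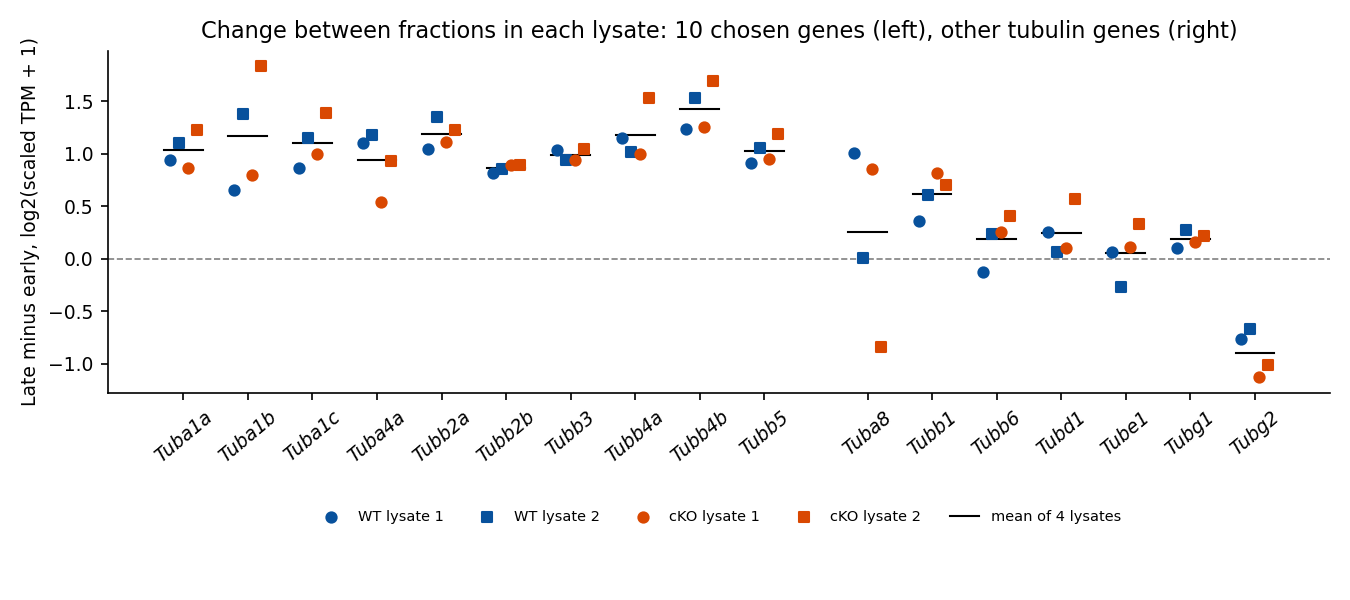
Late minus early change on the log2(scaled TPM + 1) scale in each of the 4 lysates, 1 point per lysate with a line at their mean, for the 10 tubulin genes at the left and other tubulin genes at the right. The 10 genes all lie between 0.54 and 1.83, while Tubg2 lies below 0 in every lysate.

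Together the 10 genes held 0.299% to 0.340% of all TPM in early libraries and 0.716% to 0.818% in late libraries. The summed alpha TPM was 1026 to 1195 in early and 2220.1 to 2848 in late libraries, and the summed beta TPM was 1915 to 2242 in early and 4879 to 5384 in late libraries. The ratio of the beta to the alpha sum was 1.78 to 2.10 in early and 1.87 to 2.23 in late libraries, so the ranges overlapped. Within each lysate the ratio was higher in the late library, by 0.164 ± 0.0866 on average (SD, n = 4 lysates).

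The share of each gene in the beta sum was also compared between fractions. Tubb4b made up 31.6% to 36.4% of the summed beta TPM in early libraries and 40.2% to 42.3% in late libraries, with no overlap. Its share was 7.08 ± 2.51 percentage points higher in the late library (SD, n = 4 lysates), in 4 of 4 lysates. Tubb2b held 13.8% to 15.4% in early and 11.4% to 12.7% in late libraries, a late minus early difference of -2.63 ± 0.986 points, negative in 4 of 4 lysates. Tubb3 (20.2% to 22.3% early, 17.9% to 20.0% late) and Tubb5 (26.8% to 29.4% early, 24.4% to 27.1% late) also had lower late shares in 4 of 4 lysates. Tubb2a stayed between 1.86% and 2.33% in both fractions. For Tubb4b, Tubb2b, Tubb3, Tubb5 and the ratio of the sums, the exact two-sided sign-flip permutation test gave p = 0.125 each (Benjamini-Hochberg 0.175 over 7 tests), the smallest p that this test can give with 4 lysates. Of the sequence behind these shares, 50.9% of the 50-base windows of Tubb4b were also found in other genes, mostly the pseudogenes Tubb4b-ps1 and Tubb4b-ps2.

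**Figure D3:**
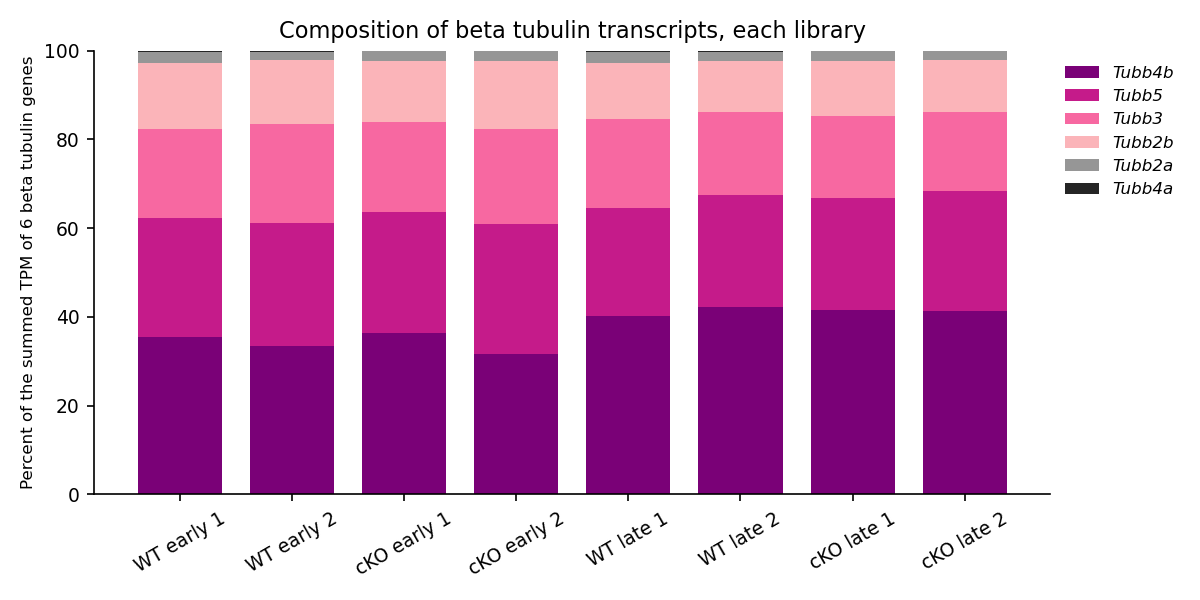
Percent of the summed TPM of the 6 beta tubulin genes held by each gene, 1 stacked bar per library. The Tubb4b segment reaches 31.6% to 36.4% in the 4 early libraries and 40.2% to 42.3% in the 4 late libraries.

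TPM is scaled by length, so the genes were ranked by it. The places of the 6 genes with many shared windows (39.3% to 73.8%) are uncertain, since the counting of reads with several matches is not given. In WT early libraries the order of mean scaled TPM was Tuba1a (981), Tubb4b (767), Tubb5 (606), Tubb3 (473), Tubb2b (326), Tubb2a (46.6), Tuba4a (37.1), Tuba1b (30.9), Tuba1c (19.9) and Tubb4a (5.91). Only Tuba4a and Tuba1b overlapped among neighbours in that order. In WT late libraries Tubb4b (2000.3) and Tuba1a (1997) overlapped at the top, and the order below them was the same as in WT early libraries. In cKO early libraries the neighbours Tuba4a and Tubb2a, and Tuba1b and Tuba1c, overlapped. In cKO late libraries Tuba1a (2254) and Tubb4b (2036) overlapped, as did Tuba4a with Tuba1b and Tuba1b with Tuba1c. The 5 most abundant genes were the same in all 4 groups.

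Coding length limits how many ribosomes a transcript can carry, so the tubulin changes were put beside genes of like length. Of the genes tested, 14687 (91.2%) had a coding length in GENCODE. The median late minus early change ran from -1.12 log2 in the shortest of 10 length bins (111 to 552 nt) to 0.50 in the longest (3396 nt and above). All 10 tubulin genes fell in the same bin (1332 to 1584 nt, 1478 genes), whose median was 0.20 and whose quartiles were -0.24 and 0.60. Each of the 10, from 0.87 (Tubb2b) to 1.43 (Tubb4b), was above that upper quartile. Genes with few shared windows (Tuba4a, Tubb3, Tubb4a and Tubb5, at most 1.11%) changed by 0.94 to 1.17, inside the 0.87 to 1.43 of the 6 genes with many (39.3% to 73.8%).

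**Figure D4:**
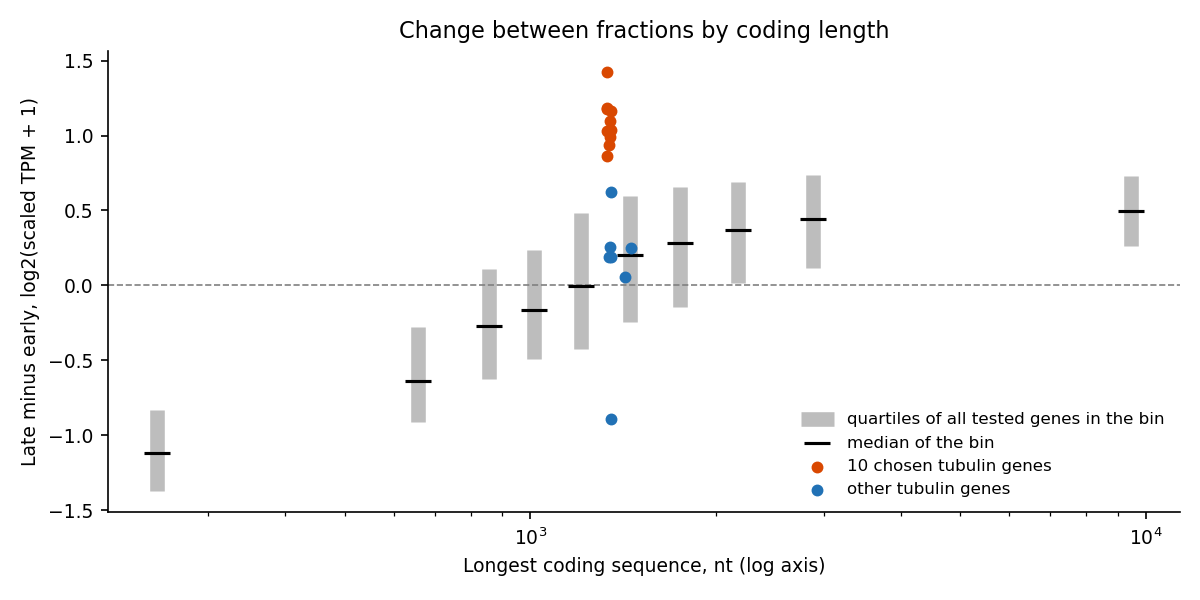
Late minus early change, on the log2(scaled TPM + 1) scale, against coding length (nt, log axis): grey bars are quartiles and black ticks medians of 10 bins of all tested genes, and points are single tubulin genes. The 10 tubulin genes lie between 0.87 and 1.43, above the 0.60 upper quartile of their bin, and other tubulin genes of like length lie from -0.89 to 0.62.

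Of 10 other tubulin genes listed, all of nearly the same coding length where tested, 7 were tested, and 1 rose and 1 fell. Over all genes tested, 34.3% rose and 34.6% fell. Tubb1, the beta tubulin of platelets, rose by 0.62 log2 (SE 0.19, limma adjusted p = 0.0186), at a mean of 1.13 scaled TPM in early and 2.29 in late libraries. At so low a level the pseudocount lowers its change, and voom on inferred reads gave 1.01 for Tubb1, beside 0.88 for Tubb2b. Tubg2, a gamma tubulin of the complex that seeds microtubules, fell by 0.89 log2 (SE 0.09, limma adjusted p = 6.687e-05), from a mean of 12.8 to 6.53 scaled TPM. The others did not pass: Tubb6, a beta tubulin, was at 0.19 (adjusted p = 0.127), Tubg1 0.19 (0.0762), Tubd1 0.25 (0.0959), Tuba8 0.26 (0.495) and Tube1 0.06 (0.735).

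Among the tubulin folding genes, CCT and prefoldin subunits moved in opposite directions, and the cofactors went both ways. Of 21 tested, 10 rose and 10 fell in late polysomes by limma, with a median of 0.14 log2, beside 34.3% and 34.6% of all genes. All 8 CCT chaperonin subunits rose, by 0.64 to 1.32; Cct3 went from 89.9 to 224 scaled TPM (1.32, SE 0.10), Cct7 from 138 to 315 (1.19, SE 0.09) and Cct5 from 236 to 466 (0.98, SE 0.07). All 6 prefoldin subunits fell, with changes of -1.69 to -1.01; Pfdn2 went from 228 to 71.2 scaled TPM (-1.69, SE 0.13) and Pfdn4 from 90.6 to 29.4 (-1.59, SE 0.10). Of 7 cofactor genes tested, 2 rose and 4 fell. Tbca, a cofactor that binds beta tubulin, fell from 381 to 111.5 scaled TPM (-1.77, SE 0.13). Tbcd (0.97, SE 0.09) and Tbce (0.30, SE 0.11) rose. These groups also differ in coding length: 1605 to 1668 nt for the CCT subunits with a value, and 366 to 588 nt for prefoldin. Tbca has 324 nt and Tbcd 3588 nt. The median of all genes was 0.28 log2 in the bin of 1587 to 1935 nt and -1.12 in that of 111 to 552 nt. It was 0.50 in the longest bin, from 3396 nt.

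Of 11 tested genes of the feedback on tubulin mRNA, 5 rose and 4 fell by limma (34.3% and 34.6% of all genes), with a median of 0.07 log2, counts near those of all genes. Ttc5, which reads the emerging tubulin chain, fell by 0.43 log2 (SE 0.07, limma adjusted p = 0.00089), from 95.8 to 70.6 scaled TPM. Scaper, which acts with it, rose by 0.42 (SE 0.09, limma adjusted p = 0.00335), from 29.3 to 39.5 scaled TPM. Cnot1, the scaffold of CCR4-NOT, rose by 0.83 (SE 0.11), and Cnot10 (0.64), Cnot3 (0.55) and Cnot2 (0.42), other subunits of the complex, rose as well. Of its 4 tested deadenylase genes, Cnot7 (-1.02), Cnot6 (-0.80) and Cnot6l (-0.37) fell, and Cnot8 did not pass (-0.14, limma adjusted p = 0.11).

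Of 25 tested genes for tubulin-modifying enzymes, 7 rose and 8 fell by limma, again near the 34.3% and 34.6% of all genes, with a median of -0.12 log2. Hdac6, a tubulin deacetylase, rose by 0.94 (SE 0.15), Ttll12 by 0.87 (SE 0.08) and Ttll7, a polyglutamylase that acts on beta tubulin tails, by 0.56 (SE 0.06). Of the family that trims glutamates from tails, Agbl3 (-1.12, SE 0.12) and Agbl5 (-0.55, SE 0.09) fell, Agbl2 (0.38) and Agtpbp1 (0.22) rose, and Agbl4 (-0.12) did not pass. Tpgs2, a polyglutamylase subunit, fell as well (-0.80, SE 0.14).

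Of 30 tested genes for microtubule-binding proteins, 21 rose and 5 fell by limma (34.3% and 34.6% of all genes), with a median of 0.49 log2. Their coding lengths ran from 447 to 9042 nt, and the longest bins of all genes had medians of 0.44 and 0.50. Map1s rose by 1.20 (SE 0.10), Map7d1 by 1.18 (SE 0.08) and Clip2, a protein of growing microtubule ends, by 1.16 (SE 0.08). Tppp3 and Tppp, which bundle microtubules, were at -1.24 (SE 0.09) and -0.39 (SE 0.08). Stmn1, which sequesters tubulin dimers, fell by 1.19 (SE 0.12), from 1509 to 667 scaled TPM. Of the other stathmins, Stmn3 fell (-0.20), Stmn4 rose (0.52) and Stmn2 did not pass (-0.10, limma adjusted p = 0.384). Tppp3 and Stmn1 have short coding sequences, of 528 and 447 nt. The bin of 111 to 552 nt had a median of -1.12 over all genes. No gene of these 4 lists passed in any genotype comparison by limma, where 0.0435% (early), 0.0124% (late) and 0.00621% (lysate means) of all genes did.

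Cell type markers also moved between fractions, beside 34.3% of all genes that rose and 34.6% that fell. The 8 sustentacular markers summed to 6895 to 8614 TPM in early and 13070 to 14840 TPM in late libraries, and 7 of 8 rose. The 8 markers of motile ciliated cells, which build cilia with Tubb4b, summed to 721 to 799 TPM in early and 345 to 421 TPM in late libraries, and 6 of 8 fell. The 10 mature neuron markers summed to 10450 to 12660 TPM in early and 7563 to 9203 TPM in late libraries, although 7 rose and 3 fell. Of the horizontal basal cell markers 4 of 5 rose, with sums of 50.0 to 72.9 TPM in early and 105.1 to 131.8 TPM in late libraries, and of the globose basal and progenitor markers 5 of 8 rose and none fell, with sums of 309.9 to 359.9 and 463 to 491 TPM. The part of all these markers in the tubulin changes was not tested.

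The genotype comparison asked whether tubulin transcripts on polysomes differ when Mex3a is lost. None of the 10 genes passed by limma in early polysomes (0.0435% of all genes passed), in late polysomes (0.0124%) or on the mean of each lysate (0.00621%). None passed by voom on inferred reads either, where 0.0746%, 0.0933% and 0.348% of all genes did. At an unadjusted p under 0.05, limma gave 2 of the 10 in early polysomes (6.65% of all genes), 1 in late polysomes (9.36%) and 2 on lysate means (11.3%). In bulk tissue, fewer cells of a type and less RNA per cell cannot be told apart.

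Tubb4a had the largest difference. In early polysomes it was at 7.50 and 4.20 TPM in WT and 2.08 and 1.74 in cKO libraries, a difference of -1.16 log2 (95% interval -1.89 to -0.43, limma adjusted p = 0.665). In late polysomes the difference was -0.98 (-1.71 to -0.25, limma adjusted p = 0.431), and on lysate means -1.07 (-1.70 to -0.45, limma adjusted p = 0.359). Both cKO libraries were below both WT libraries in each fraction. The 6 ensheathing glia markers, of cells that wrap olfactory axons, summed to 679 to 854 TPM in WT early, 603 to 667 in cKO early, 706 to 850.0 in WT late and 588 to 605 in cKO late libraries. None of the 6 was at 0 in all 8 libraries. Sums of the 5 blood and immune markers in the table were higher in early cKO libraries, at 393 to 416 TPM, than in early WT libraries, at 300 to 345 TPM. They were higher in late cKO (312 to 314 TPM) than in late WT libraries (241 to 286 TPM) as well. The 8 immature neuron markers summed to 2464 to 2567 (WT) and 2382 to 2421 TPM (cKO) in early, and to 2493 to 2539 (WT) and 2222 to 2352 TPM (cKO) in late libraries. The 10 mature neuron markers summed to 8622 to 9203 (WT) and 7563 to 8301 TPM (cKO) in late libraries, and overlapped in early ones. The motile ciliated markers summed to 721 to 734 (WT) and 779 to 799 TPM (cKO) in early libraries, and overlapped in late ones. The sustentacular markers summed to 13070 to 13570 (WT) and 14290 to 14840 TPM (cKO) in late libraries, and overlapped in early ones. No marker of these lists passed between genotypes by limma, where few of all genes did (0.0435% early, 0.0124% late, 0.00621% on lysate means). The part of these cells in the Tubb4a difference was not tested.

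Tuba4a was at 36.8 and 36.6 TPM in WT early and 53.6 and 44.6 TPM in cKO early libraries, with no overlap. The difference was 0.46 log2 (95% interval 0.21 to 0.71, limma adjusted p = 0.61). In late polysomes it was 0.06 (-0.20 to 0.31, limma adjusted p = 0.903), where the libraries overlapped, and on lysate means 0.26 (0.10 to 0.42, limma adjusted p = 0.362). Voom on inferred reads gave a smaller difference by lysate, 0.14 (voom adjusted p = 0.416). In the early and late fractions voom gave 0.47 and 0.04 (voom adjusted p = 0.315 and 0.949). The late minus early change of Tuba4a was thus 0.40 lower in cKO than in WT by the interaction of genotype and fraction (interval -0.76 to -0.05), with limma adjusted p = 0.9997. Tuba4a was the 1 gene of the 10 with an interaction at an unadjusted p under 0.05 by limma (2.85% of all genes), and 0 of 10 passed after adjustment (0.00621% of all genes passed by limma, and 0% by voom).

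For the other genes the intervals of the genotype difference included 0 in both fractions. Tuba1c had the largest of these in late polysomes, at 0.24 log2 (-0.21 to 0.70) in early and 0.42 (-0.03 to 0.88) in late polysomes, with both cKO libraries above both WT libraries in each fraction after scaling. Tuba1a was at 0.15 (-0.18 to 0.48) in early and 0.17 (-0.16 to 0.50) in late polysomes. Tuba1b was at 0.01 (-0.58 to 0.60) and 0.31 (-0.28 to 0.90). For the remaining beta genes the late values were Tubb3 -0.06 (-0.31 to 0.18), Tubb2b 0.01 (-0.21 to 0.23), Tubb5 0.10 (-0.19 to 0.38), Tubb4b 0.03 (-0.34 to 0.40) and Tubb2a -0.01 (-0.32 to 0.30). After scaling, both cKO early libraries were above both WT early libraries for 3 of the 10 (Tuba1a, Tuba1c and Tuba4a, beside 19.6% of all genes) and below for 1 (Tubb4a, 17.6%). In late polysomes they were above for 2 (Tuba1b and Tuba1c, 20.5%) and below for 2 (Tubb3 and Tubb4a, 20.1%). Libraries of all cKO samples lay on the same side of the WT libraries in both fractions for 2 of the 10, Tuba1c and Tubb4a, as they did for 13.2% of all genes.

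**Figure D5:**
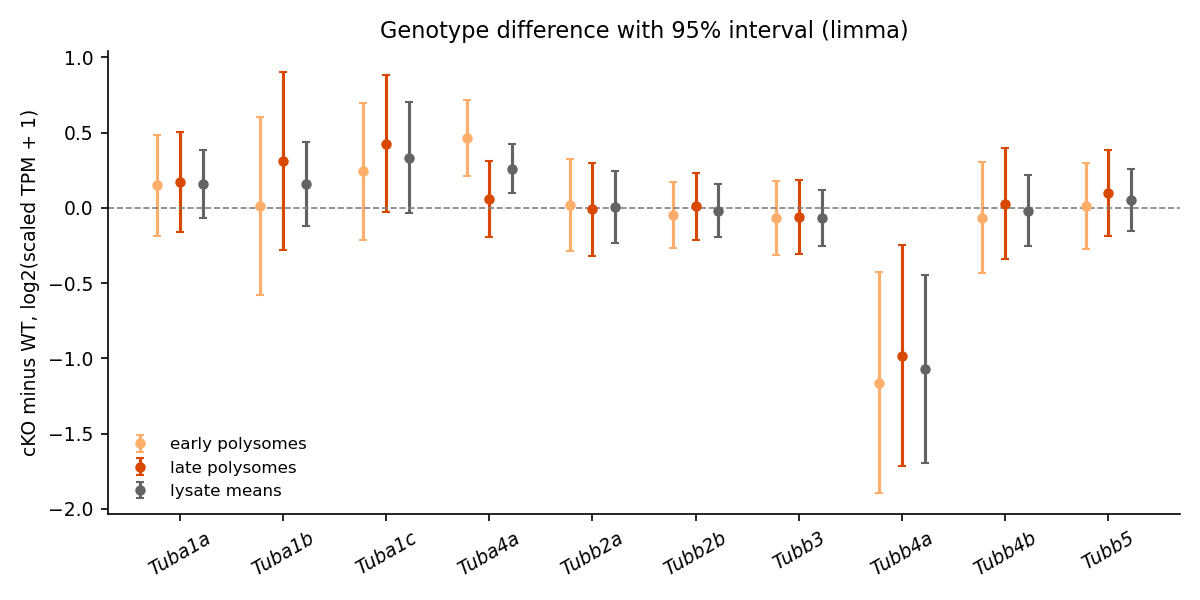
Difference between cKO and WT on the log2(scaled TPM + 1) scale with its 95% interval from limma for the 10 tubulin genes, in early polysomes, late polysomes and lysate means (2 libraries or lysates per genotype). The intervals of Tubb4a lie below 0 in all 3 comparisons and that of Tuba4a above 0 in early polysomes and lysate means, while no adjusted p was under 0.05.

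Genes with the pattern most like 3 of the tubulins were taken from 4416 genes with a mean of at least 50 scaled TPM. Across the 8 libraries, which share lysates and the split into fractions, Pearson's r with Tubb4b was highest for Tpm2 (0.9991), Abce1 (0.9985) and Atp6v1b2 (0.9983). Pearson's r leaves out the size of a change: late minus early these genes were at 1.25, 0.63 and 1.08 log2, beside 1.43 for Tubb4b. With Tubb3 (0.99 log2) Pearson's r was highest for Stau1 (0.999), Papss2 (0.9978) and Apbb1 (0.9978), which changed by 0.965, 1.09 and 0.88 log2. With Tuba1a (1.03 log2) it was highest for Hexim1 (0.9974), Tob2 (0.9968) and Rgs12 (0.9968), which changed by 1.01, 0.65 and 0.61 log2.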

How the data were processed

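The 10 genes and all gene lists were chosen with earlier results of these data known. The authors deposited 1 table of TPM, in which every library sums to 1000000. The submitters' processing notes name FastQC, cutadapt, STAR, DESeq2 and mm10; the annotation, the counting and its use of strand are not given in the sources used here. Per the labels' protocols, 50 µL of each of about 42 fractions of 350 µL was pooled and libraries came from a stranded low-input total RNA kit. Groups came from sample titles; the Cre line and some sequences are not reported here.

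Median ratios were used to scale libraries (factors 0.94 to 1.07), and limma 3.58.1 in R 4.3.3 was run on log2(scaled TPM + 1). Tests covered genes whose deposited TPM averaged at least 1, with the 4 groups in 1 fit and a mean-variance trend, two-sided, and Benjamini-Hochberg adjustment over all 16097 genes and a threshold of 0.05; scaled values carry the pseudocount of 1 in every log2 change, which understates the change of low genes. A further genotype test used each lysate's average over both fractions. Whole reads were inferred from TPM steps for 19783 genes (100% within 0.001) and give the likely depth; they cover counting only. Coding length, sequences and 50-base windows came from GENCODE vM21 on GRCm38, in place of the RefSeq protein length planned. Shares were compared by exact sign-flip tests over lysates. Scripts were tested on simulated data.

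Early and late libraries with the same number share a lysate, per the library names, and were paired by it in an alternative. Correlations of their deviations from the group means were 0.0863 (WT lysates) and 0.0502 (cKO lysates) over genes. Between WT and cKO, no label says that a number marks a shared batch or day.

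Genes named besides the 10 were all tested genes of the other tubulin list, up to 3 rising and 3 falling genes of each pathway list (largest change past the threshold, mean of at least 5 scaled TPM, libraries not overlapping), and the 3 genes most like Tuba1a, Tubb3 and Tubb4b. Outside this rule, Cnot6l, Cnot8, Agbl2, Agbl4 and Agtpbp1 were named as the other tested deadenylase and glutamate-trimming genes. Tbcd, Tbce, Scaper, Cnot2, Stmn2, Stmn3 and Stmn4 were named outside it too, so that each direction within their groups is shown. Alternatives were pseudocounts of 0.1 and 0.5, no filter or a minimum of 5 TPM, unscaled TPM, quantile normalization, a fit without the trend, voom on inferred reads, fits without each library in turn, fits of the compared libraries alone, replicate blocks, and a random lysate effect. Figures were drawn with matplotlib 3.10.9.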

Additional observations from a re-analysis of the deposited data

How the results depend on the processing

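Late against early, 10 of 10 tubulin genes passed on the mean of both genotypes, in WT and in cKO under all alternatives that kept 8 libraries. By the main fit 34.3%, 27.1% and 28.9% of all genes were called higher. With 1 library left out, every change kept its direction. Tuba1b ranged from 0.67 to 1.35 log2 in WT, and Tubb4a from 0.67 to 1.495 in WT and from 1.07 to 1.46 in cKO. Some calls of these 2 genes within a genotype were lost, and in those fits fewer of all genes were called as well. With 1 library left out, its group's lone library is assumed to vary like the others. Between genotypes and in the interaction, 0 of 10 passed under every alternative that kept 8 libraries. By the main fit few of all genes passed: 0.0435% (early), 0.0124% (late) and 0.00621% (lysate means, and again the interaction).

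Paired by lysate as a replicate block, late against early gave 10 of 10 on the mean and in each genotype, and 0 in the interaction, so no call changed. Across genotypes, libraries with the same number had deviations that correlated over genes at 0.332 in early and 0.143 in late polysomes. With 2 libraries per group, the deviations of replicate 2 mirror those of replicate 1, so replicate 2 adds no independent pair. With the replicate number as a block, WT against cKO gave 0 of 10 in early polysomes, late polysomes and lysate means, and 7, 2 and 85 calls among all genes.

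Genotype differences near 0 changed sign; the cause was not tested. With TPM as deposited, the value was -0.0448 for Tuba1b, -0.0392 for Tubb2a and -0.0447 for Tubb5 in early polysomes, -0.0291 for Tubb2b and -0.0103 for Tubb4b in late polysomes and -0.0439 for Tubb2a on lysate means. With quantile normalization, the value was -0.0593 for Tubb5 in early polysomes, -0.000145 for Tubb2b and -0.0450 for Tubb4b in late polysomes, -0.0127 for Tubb5 on lysate means and -0.0142 for Tubb3 in the interaction. With voom, the value was -0.00692 for Tubb2b in late polysomes, -0.0854 for Tubb2a and -0.0108 for Tubb5 on lysate means and -0.00526 for Tubb3 in the interaction. With 1 library left out, values crossed 0 in early polysomes for Tuba1b (-0.33 to 0.35), Tubb2a (-0.16 to 0.19), Tubb4b (-0.25 to 0.13) and Tubb5 (-0.0202 to 0.0472). They did so in late polysomes for Tuba4a (-0.0252 to 0.14), Tubb2a (-0.0633 to 0.0423), Tubb2b (-0.0118 to 0.0347) and Tubb4b (-0.0619 to 0.12). They did so in the interaction for Tuba1a (-0.10 to 0.14), Tuba1b (-0.0354 to 0.64), Tuba1c (-0.14 to 0.50), Tubb2a (-0.20 to 0.15), Tubb3 (-0.0429 to 0.0597), Tubb4a (-0.23 to 0.59), Tubb4b (-0.0957 to 0.28) and Tubb5 (-0.00565 to 0.17). On lysate means with 1 lysate left out, the value was -0.0782 for Tubb2a without cKO replicate 1, -0.0938 for Tubb2a without WT replicate 2, 0.0155 for Tubb2b without WT replicate 1 and 0.0594 for Tubb4b without cKO replicate 2.

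Depth was lowest for Tubb4a (17 to 179 inferred reads).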
